A study of Mus musculus with 2 samples.

Results

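The cells described here carried transcripts of the Notch ligand Dll3 but had low Hes5 and low cell cycle transcripts. A cell was taken if its deposited value was at least 1 for Dll3, under 3 for Hes5 and under 3 for Top2a and Mki67 together. This rule found 778 of 4001 cells, or 19.4% (exact 95% interval 18.2% to 20.7%, which covers the counting of cells only). They are called Dll3 cells below. The remaining cells were split by the same genes into 3 groups, so that each cell fell into 1 group. Hes5 progenitors had Hes5 at 3 or more (1229 cells), cycling Hes5-low cells had Top2a plus Mki67 at 3 or more (313 cells), and Dll3-zero cells passed both limits but had no Dll3 (1681 cells).

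The cells came from the medial ganglionic eminence (MGE), a ventral forebrain region that gives rise to cortical interneurons and to neurons of the pallidum and basal forebrain. Tissue was taken from CD-1 mouse embryos at E11.5 and run on 10x Chromium with MULTI-seq, which marks cell suspensions with lipid-anchored sample barcodes so that they can share a run. The pool held 6 sample barcodes. Of these, 4 belonged to cells gated on GFP (2 from hs192 and 2 from hs799, both enhancers) and 2 to ungated cells. Cells were not assigned to sample barcodes, so the enhancer lines and gates were pooled in 1 RNA library, and the GFP gate can set any share of cells given here. The number of pooled embryos is not given by the sources used here.

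Notch signalling between neighbouring progenitors decides which of them stay in the ventricular zone. Cells with active Notch express Hes1 and Hes5 and stay progenitors, whereas cells with high proneural factor express Delta ligands and leave. Dll3 is a divergent family member that acts mostly inside the cell that makes it, where it can dampen Notch signalling. In the ganglionic eminences, newborn cells pass from the ventricular zone through the subventricular zone and then differentiate in the mantle.

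Promoter sequences of the marker genes Dll3, Btbd17 and Abracl are shown because these genes tracked each other along the Dll3 value, as given below. Dll3 lies at chr7:28293553-28302238, Btbd17 at chr11:114791217-114795945, Abracl at chr10:18011260-18023288 and Cdkn1c at chr7:143458339-143461050, all on the minus strand of GRCm38 and protein-coding in GENCODE vM21. RefSeq promoter windows on GRCm38.p6, each holding 250 bases before and 50 after a gene start, were searched on both strands. The E-box CAGCTG, which proneural factors can bind, was present in 16.3% of 32851 windows. The core TGGGAA of the Notch effector Rbpj was present in 25.6%, and the E-box CACGTG, bound by several helix-loop-helix factors, in 7.15%. The stretches below run 5′ to 3′ on the minus strand, with matches in capitals. The Btbd17 and Abracl stretches (chr11:114795946-114796142 and chr10:18023289-18023502) lie upstream of every GENCODE exon of the gene. For Dll3, the 30 bases at chr7:28301786-28301815 hold the match, inside the longer GENCODE first exon.
Dll3: aaatataagactccggcatccagCAGCTGc
Btbd17: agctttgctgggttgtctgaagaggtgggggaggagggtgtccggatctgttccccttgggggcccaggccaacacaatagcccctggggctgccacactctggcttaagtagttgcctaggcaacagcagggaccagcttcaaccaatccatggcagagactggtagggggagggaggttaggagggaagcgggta
Abracl: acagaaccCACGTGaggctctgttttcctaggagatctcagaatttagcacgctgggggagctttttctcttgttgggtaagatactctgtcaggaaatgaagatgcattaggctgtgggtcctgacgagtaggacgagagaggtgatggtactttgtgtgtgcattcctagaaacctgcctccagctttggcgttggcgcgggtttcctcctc
The Dll3 match was CAGCTG and the Abracl match CACGTG, and the Btbd17 window held none of the 3 motifs. Abracl has a further window, overlapping this one, with no match. A match is a description of the letters and does not show a bound site.

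The library held 18088 genes, and each of the 4001 cells had its own barcode. Deposited values were whole numbers whose cell totals spanned only 10475 to 14196, so they were treated as depth-corrected values and not as raw counts, and the raw depth per cell is unknown. The median total was 12012 in Dll3 cells with 3816.5 genes per cell, 11946 with 3818 in Dll3-zero cells, 13482 with 4464 in Hes5 progenitors and 13420 with 4391 in cycling Hes5-low cells. A level below is the summed value of a gene per 10000 summed values of the group, with the standard deviation between cells (SD) where stated. With 1 library there was no replicate and no test, and the SD describes cells, not embryos. A gene is called higher or lower in a comparison if its level differed at least 2-fold and reached 0.2 in either group.

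In the rule's own gene, most Dll3 cells lay close to the limit. Dll3 values ranged from 1 to 20 with a median of 1. They were 1 in 392 cells (50.4%), 2 in 155 (19.9%) and 3 or more in 231 (29.7%). Over 736 genes, 214 cells of the matrix largely skipped the value 1. Among these were 26 of the 155 Dll3 cells at 2 (16.8%) and 1 of the 392 at 1. The values 1 and 2 may therefore not be comparable between such cells and the rest, which was not tested. Near the other limits, 49 Dll3 cells had Hes5 at 2 and 32 had Top2a plus Mki67 at 2, while 451 (58.0%) had 0 for both measures. The Dll3 cells are a range of values cut by the rule, and whether they form a separate type was not tested.

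Differentiated neurons, taken as cells with Calb1 or Ebf1 at 10 or more, gave a background for low Dll3 values. Of these 352 cells, 22.4% (18.2% to 27.2%) had Dll3 at 1 or more, with a median total of 12385.5 and 3977.5 genes. Among the 2459 cells with low Hes5 and low cycle transcripts the share was 31.6% (29.8% to 33.5%). After thinning every cell to 10000 values the shares were 19.6% and 28.5%. At 3 or more the shares were 2.27% and 9.39%, or 1.42% and 7.56% after thinning. The share at 1 or more was thus a little above this background, and the share at 3 or more further above it. A value of exactly 1 was found in 57 of the 352 neurons and 392 of the 2459 cells. By itself it did not stand above the background. These sets overlap, since 79 Dll3 cells and 265 Dll3-zero cells were among the neurons. Dll3 was most frequent in the cycling Hes5-low cells, of which 62.3% had Dll3 at 1 or more and 27.2% at 3 or more (56.5% and 16.9% after thinning).

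The limits were checked with levels of genes that the rule did not use. Cells just inside the Dll3 limit (value 1) and just outside it (value 0) had Tubb3 levels of 30.7 and 32.3, Cdkn1c levels of 7.07 and 5.48, and Abracl levels of 4.02 and 2.17. Btbd17 levels were 0.529 and 0.192, and those of Ccnd1, a D cyclin, 0.842 and 0.517. Tubb3 encodes a neuronal tubulin, Cdkn1c the cyclin-dependent kinase inhibitor p57, and Abracl a small actin-regulating protein. Cells just inside the Hes5 limit (value 2) had Tubb3 at 25.05 and Cdkn1c at 16.4, against 13.2 and 28.7 in the 22 cells at the value 3 that had Dll3 and low cycle transcripts. At the cycle limit, Tubb3 was 20.2 inside and 17.9 in the 24 cells outside, and Cdkn1c was 13.0 and 21.0.

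The other marker genes, Btbd17, Abracl and Cdkn1c, did not set the Dll3 cells apart from cycling Hes5-low cells. Btbd17, which encodes a BTB domain protein, ranged from 0 to 9 per Dll3 cell with a median of 0. Its level was 1.001 (SD 1.48) in Dll3 cells, 0.873 in cycling Hes5-low cells, 0.597 in Hes5 progenitors and 0.192 in Dll3-zero cells. Abracl values ran from 0 to 48 with a median of 5.5. Its level of 6.53 (SD 6.66) in Dll3 cells was below the 9.20 of cycling Hes5-low cells and above the 3.95 of Hes5 progenitors and 2.17 of Dll3-zero cells. Cdkn1c values ran from 0 to 234 with a median of 7, and its level was 10.9 (SD 17.4) in Dll3 cells, 10.2 in cycling Hes5-low cells, 5.48 in Dll3-zero cells and 4.82 in Hes5 progenitors. Cell values of all 3 genes overlapped between the groups, each of which included cells at 0. Btbd17 and Abracl were more than 2-fold higher in Dll3 cells than in Dll3-zero cells. Cdkn1c was at the limit with a ratio of 1.98 (log2 0.99), and passed it with Dll3 at 2 or more (log2 1.43). It was more than 2-fold higher than in Hes5 progenitors.

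**Figure D1:**
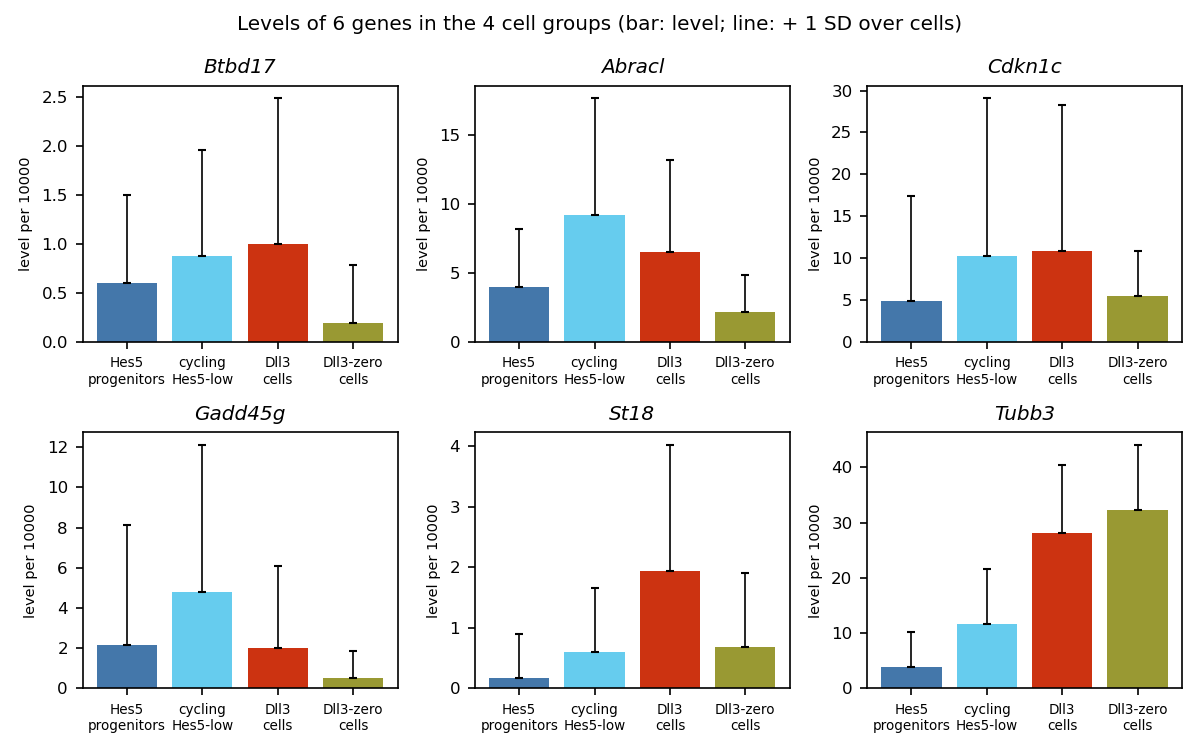
Levels (summed value per 10000) of 6 genes in the 4 cell groups; bars start at 0, and lines show 1 SD over cells. Abracl and Gadd45g were highest in cycling Hes5-low cells, St18 was highest in Dll3 cells (1.93), and Tubb3 was similar in Dll3 cells (28.1) and Dll3-zero cells (32.3).

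Cell cycle genes outside the rule were low in Dll3 cells. Against Hes5 progenitors, 45 of 46 S phase genes and 44 of 49 G2 and M phase genes with a level of 0.2 or more were lower and none was higher, beside 16.4% of all 7415 genes lower and 11.1% higher. Against cycling Hes5-low cells, 44 of 45 and 48 of 51 were lower, beside 11.3% of 7160 genes lower and 5.82% higher. The rule removed cells with Top2a and Mki67, which share their phases with these genes, so the direction of these counts is not independent of it. Cdk1, the kinase that drives entry into mitosis, had a value in 5.01% of Dll3 cells (3.98% after thinning), against 74.1% of cycling Hes5-low cells and 4.40% of Dll3-zero cells. Pcna, the clamp of the replication fork, had one in 15.8%, 49.5% and 12.6%.

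Against Dll3-zero cells, which passed the same cycle limit, a minority of the cycle genes tested was higher in Dll3 cells. Here 1.43% of all 6517 genes were higher and 1.29% lower. Among 21 S phase genes tested, 4 were higher and none lower: Cdca7 (level 1.29 against 0.297), Mcm2 (0.403 against 0.105), Rrm2 (0.530 against 0.211) and Uhrf1 (0.242 against 0.0974). Mcm2 is a subunit of the replicative helicase and Rrm2 of the enzyme that makes deoxynucleotides. Of 16 G2 and M phase genes, Cenpa and Ube2c were higher and none was lower. All these levels were below those of cycling Hes5-low cells, where Rrm2 stood at 7.81 and Cdca7 at 2.83.

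The list of cell cycle exit genes and D cyclins, which also holds Cdk6, went both ways. Of 19 genes of this list tested against Hes5 progenitors, 6 were higher (Btg1, Ccng2, Cdkn1c, Cdkn2d, Cend1 and Trp53inp1). Another 6 were lower (Btg2, Ccnd1, Ccnd3, Cdk6, Plagl1 and Rbl1), so the lower genes included D cyclins. Cdkn1c is among the marker genes of the population, so it is not an independent member of this count. Over all genes tested, 11.1% were higher and 16.4% lower. With Dll3 at 2 or more, Btg2 was no longer 2-fold lower (log2 ratio -1.06 with all Dll3 cells and -0.46 with these). Against Dll3-zero cells, 5 of 17 were higher (Btg2, Ccnd1, Ccnd2, Ccnd3 and Gadd45g) and none lower, beside 1.43% and 1.29% of all genes. Gadd45g, a growth arrest gene activated by proneural factors, stood at 1.999 (SD 4.10) in Dll3 cells. This was close to the 2.16 of Hes5 progenitors, below the 4.81 of cycling Hes5-low cells and above the 0.537 of Dll3-zero cells. Ccnd1, a D cyclin of early G1, was 1.46 in Dll3 cells against 10.7 in Hes5 progenitors, 5.82 in cycling Hes5-low cells and 0.517 in Dll3-zero cells. Ccnd2 was nearly level over the first 3 of these groups, at 3.93, 3.66 and 4.65, and stood at 0.978 in Dll3-zero cells.

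On the ligand side of the Notch pathway, Dll1 and Mfng were higher than in Dll3-zero cells. They were 2 of 9 ligand and modulator genes tested, beside 1.43% of all genes, and none was lower. Against Hes5 progenitors 2 of 10 were higher (Dner and Numbl) and 2 lower (Adam17 and Lfng), beside 11.1% and 16.4% of all genes. Against cycling Hes5-low cells 1 of 9 was higher (Dner) and 2 were lower (Adam17 and Dll1), beside 5.82% and 11.3%. The median log2 ratios of the list were 0.006 and -0.03 in these comparisons. Dll1, the ligand that activates Notch on neighbours, was 0.381 in Dll3 cells, 0.819 in cycling Hes5-low cells, 0.522 in Hes5 progenitors and 0.159 in Dll3-zero cells. Mfng, a glycosyltransferase that alters how Notch meets its ligands, was 1.97 in Dll3 cells, 2.03 in cycling Hes5-low cells, 1.35 in Hes5 progenitors and 0.490 in Dll3-zero cells. Its paralogue Lfng was 0.0105 in Dll3 cells and 0.289 in Hes5 progenitors. Dner, a neuronal transmembrane protein related to the Delta ligands, was 0.528 in Dll3 cells and 0.821 in Dll3-zero cells, against 0.0629 in Hes5 progenitors.

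On the receiving side, 7 of 9 receptor and effector genes tested were lower than in Hes5 progenitors: Hes1, Hey1, Id1, Id3, Notch1, Notch3 and Nrarp. Of all genes, 16.4% were lower and 11.1% higher. The progenitors were themselves chosen by the effector Hes5. The exception above 2-fold was Maml3, a coactivator, at 0.435 against 0.124. Notch1 stood at 0.392 in Dll3 cells, 2.21 in Hes5 progenitors, 1.42 in cycling Hes5-low cells and 0.112 in Dll3-zero cells. Hes1, an effector that represses proneural genes, was at 0.0251 in Dll3 cells and 0.0244 in Dll3-zero cells, against 1.04 in Hes5 progenitors. Rbpj, the DNA-binding partner of Notch, varied little, from 0.883 to 1.53 over the 4 groups.

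Proneural and neurogenic factors had several orders over the groups. Insm1, a zinc finger factor of basal progenitors, was 0.628 (SD 1.07) in Dll3 cells, 1.53 in cycling Hes5-low cells, 0.568 in Hes5 progenitors and 0.253 in Dll3-zero cells. Hes6, which opposes Hes1, was 2.49, 3.31, 1.82 and 1.44 in the same order. In contrast, Sox11, a factor of newborn neurons, was at 52.5 in both Dll3 cells and Dll3-zero cells, and Sox4 at 26.2 and 26.6. Over the whole list, 13 of 23 tested genes were higher than in Hes5 progenitors and none lower, beside 11.1% and 16.4% of all genes. Against Dll3-zero cells, 6 of 22 were higher, among them Btbd17, Insm1, Prox1, St18 and Zbtb18, and 1 lower (Ebf1), beside 1.43% and 1.29%. Btbd17 is among the marker genes of the population, so it is not an independent member of this count. Without cells at 10 or more for Calb1 or Ebf1, the Ebf1 log2 ratio went from -1.16 to -0.40, short of 2-fold.

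St18 was the gene with the clearest peak in Dll3 cells. It encodes a zinc finger factor of the Myt1 family and lies at chr1:6487231-6860940 on the plus strand. Its level was 1.93 (SD 2.09) in Dll3 cells, 0.678 in Dll3-zero cells, 0.592 in cycling Hes5-low cells and 0.171 in Hes5 progenitors. It had a value in 69.9% of Dll3 cells (66.6% to 73.1%), against 39.3%, 37.4% and 9.44%, and thinning gave 66.6%, 34.7%, 31.9% and 8.38%. The related Myt1 was 1.35 in Dll3 cells and 1.11 in Dll3-zero cells, and Myt1l was higher in Dll3-zero cells (2.63 against 1.57).

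**Figure D2:**
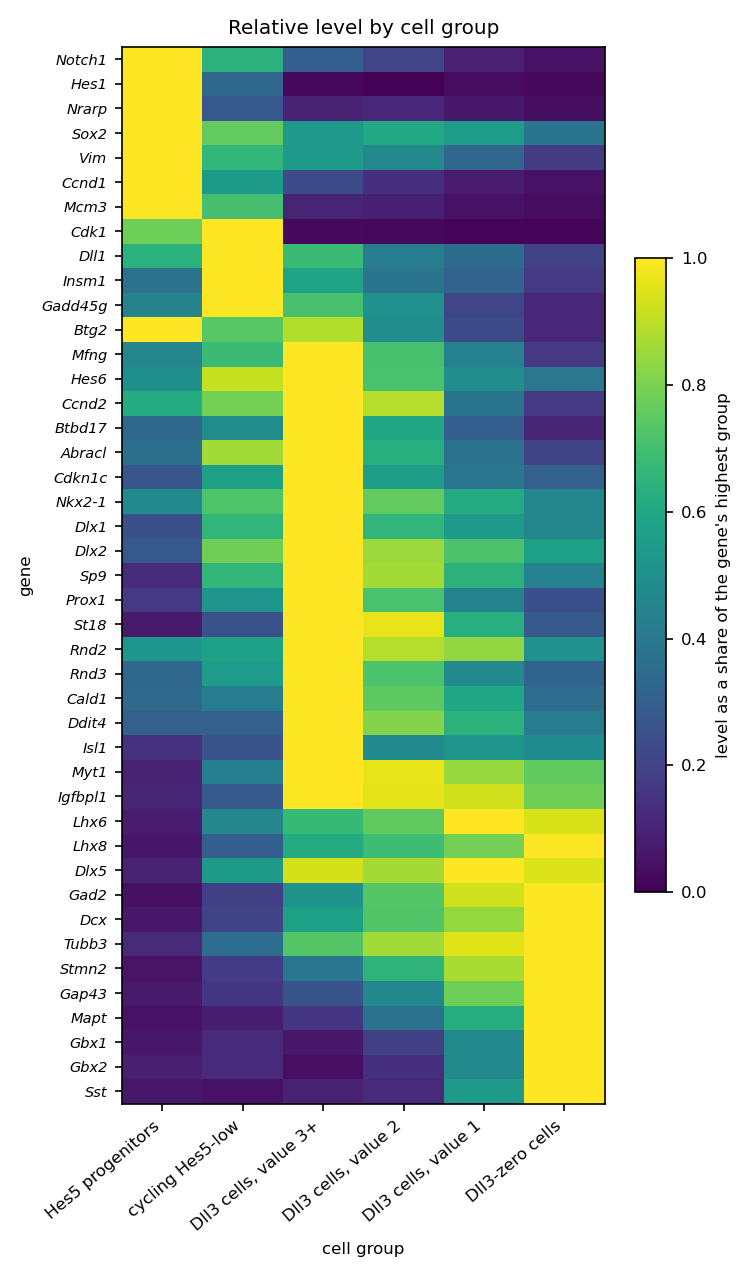
Heat map of the level of each gene as a share of its highest group, with Dll3 cells split by their Dll3 value. St18, Cald1 and Ddit4 are brightest in Dll3 cells, Notch1 and Hes1 in Hes5 progenitors, and Mapt, Sst and Gbx1 in Dll3-zero cells. Insm1 and Gadd45g are highest in cycling Hes5-low cells.

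Few genes were at their highest in Dll3 cells. A level of 0.2 or more and at least 1.5 times each of the 3 other groups was found for 16 of 7715 genes (0.207%). The same count was 334 (4.33%) for Hes5 progenitors, 51 (0.661%) for cycling Hes5-low cells and 273 (3.54%) for Dll3-zero cells. Besides St18, the 16 included Mfap4 (0.539, at least 1.97 times each other group), Ddit4 (0.858, 1.84 times), Cald1 (2.86, 1.76 times), Tpmt (0.584, 1.61 times), Rnd2 (1.37, 1.57 times) and Sox3 (1.10, 1.54 times). Cald1 encodes the actin-binding caldesmon, Rnd2 a small GTPase of neuronal migration, Ddit4 a stress-induced inhibitor of mTOR signalling and Sox3 a factor of neural progenitors. Fgd3 (0.204, 2.30 times) and Ppp1r17 (0.214, 1.98 times) were below the level set for naming and are given after their values were seen. Against all other cells together, 24 of 6891 genes (0.348%) were higher and 407 (5.91%) lower, and the higher ones included Btbd17, Prox1, Sp9, Igfbpl1, Isl1 and Ddit4.

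Among genes of delamination and early migration, Abracl, Rgs16 and Rnd3 were higher than in Dll3-zero cells. They were 3 of 19 tested, beside 1.43% of all genes, and none was lower. Abracl is among the marker genes of the population, so it is not an independent member of this count. Rnd3, a GTPase that loosens the actin cytoskeleton, was 2.86 (SD 2.82) in Dll3 cells, 2.30 in cycling Hes5-low cells, 1.40 in Hes5 progenitors and 1.36 in Dll3-zero cells. Igfbpl1, a secreted protein of newborn neurons, was 6.73 in Dll3 cells and 5.504 in Dll3-zero cells. It was 1.96 in cycling Hes5-low cells and 0.764 in Hes5 progenitors. Tjp1, a tight junction scaffold of the apical surface, was 0.162 in Dll3 cells and 0.543 in Hes5 progenitors.

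Neuronal genes were already near the level of Dll3-zero cells. All 29 pan-neuronal genes tested were higher than in Hes5 progenitors (median log2 ratio 2.59, beside -0.05 over all genes tested), and 21 of 29 were higher than in cycling Hes5-low cells (median 1.30, beside -0.03). Against Dll3-zero cells none was higher and 2 were lower, with a median of -0.36 beside 0.01. Those 2 were Ina, a neurofilament protein, at 4.28 against 8.63, and Mapt, the axonal tau protein, at 1.77 against 4.05. Tubb3 per cell ran from 0 to 67.1 per 10000 in Dll3 cells with a median of 27.1, and from 0 to 86.9 with a median of 31.6 in Dll3-zero cells. All 5 tested genes of GABA synthesis and transport were higher than in cycling Hes5-low cells and in Hes5 progenitors, beside 5.82% and 11.1% of all genes. Gad2, which makes GABA, was 5.42 in Dll3 cells, 7.08 in Dll3-zero cells, 1.34 in cycling Hes5-low cells and 0.326 in Hes5 progenitors. Of 20 axon guidance genes tested, 8 were higher and 4 lower than in Hes5 progenitors, beside 11.1% and 16.4% of all genes. None of 21 was higher than in Dll3-zero cells, and Nrp2 and Robo3 were lower, beside 1.29% of all genes.

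The ventricular zone programme was mostly low. Against Hes5 progenitors, 33 of 38 ventricular zone genes were lower and none higher, beside 16.4% and 11.1% of all genes. Against Dll3-zero cells, 9 of 19 were higher, beside 1.43% of all genes. Among them were Vim at 9.23 against 3.78 and Fabp7 at 0.978 against 0.394. Vim encodes an intermediate filament and Fabp7 a fatty acid binding protein, both of radial glia. The same held for 7 of 15 subventricular zone genes, among them Btg2, Ccnd2, Dll1, Gadd45g, Insm1 and Mfng. Outside the lists, Lmo1, a LIM-only transcription cofactor, was the gene with the largest ratio to Dll3-zero cells, at 3.49 against 0.930, but it was 10.5 in cycling Hes5-low cells and 11.4 in Hes5 progenitors. At the other end, C1qtnf4, a secreted C1q-related protein, was 0.372 against 1.03 in Dll3-zero cells.

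**Figure D3:**
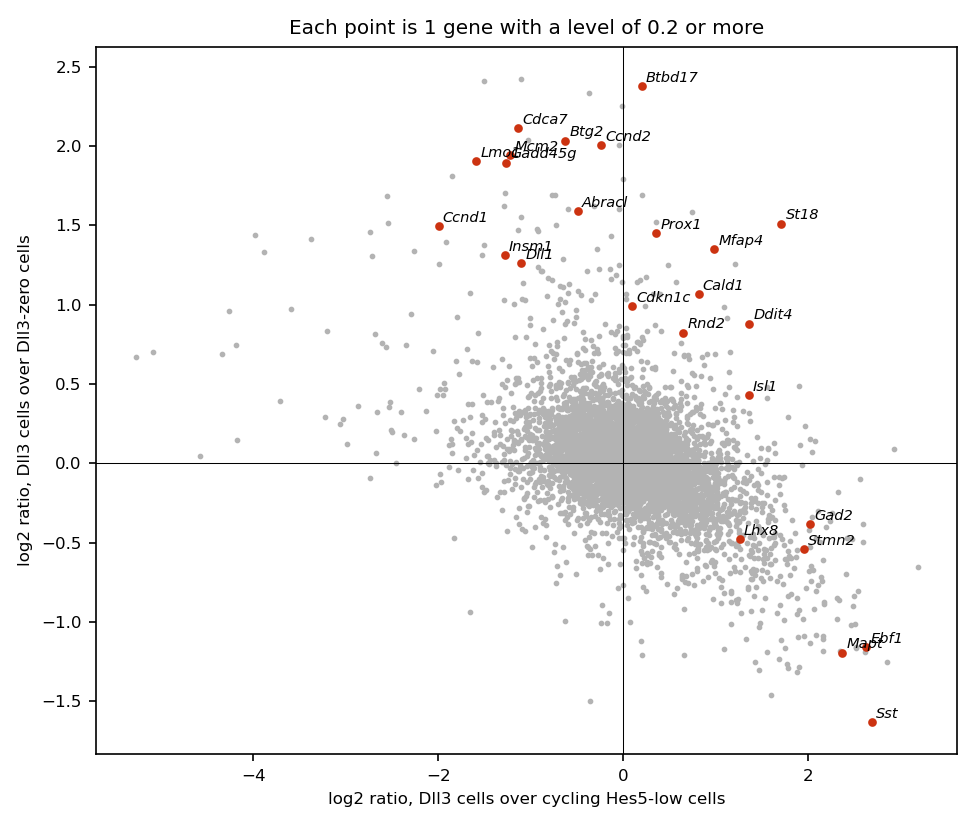
Each point is 1 gene; the x axis is the log2 ratio of Dll3 cells to cycling Hes5-low cells and the y axis the log2 ratio to Dll3-zero cells. St18 lies high on both axes (1.71 and 1.51), Mcm2 (-1.23 and 1.94) and Lmo1 (-1.59 and 1.91) at the upper left, and Mapt (2.36 and -1.19) at the lower right.

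Most Dll3 cells carried the regional gene of the MGE. Nkx2-1, the determinant of the MGE, had a value in 82.4% of Dll3 cells (79.5% to 85.0%), 82.5% of Hes5 progenitors, 85.9% of cycling Hes5-low cells and 71.6% of Dll3-zero cells. Thinned shares were 80.5%, 77.0%, 83.1% and 68.6%. Dlx1, a homeobox gene of ventral forebrain neurons, was 5.57 (SD 5.52) in Dll3 cells, 5.25 in cycling Hes5-low cells, 3.68 in Dll3-zero cells and 1.95 in Hes5 progenitors. The antisense transcript Dlx1as overlaps Dlx1, and reads of the pair may not be separable. Sp9, a zinc finger factor acting with the Dlx genes, was 4.85, 4.05, 2.71 and 0.742 in the same order. All 6 Dlx family genes tested were higher than in Hes5 progenitors, beside 11.1% of all genes. None of them was called in either direction against Dll3-zero cells.

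Lineage factors of the MGE were present, and late ones were lower than in Dll3-zero cells. Lhx6, which specifies interneurons, and Lhx8, which specifies cholinergic and pallidal neurons, were both present in 448 Dll3 cells (57.6%). Lhx6 alone was present in 139 (17.9%), Lhx8 alone in 104 (13.4%) and neither in 87 (11.2%). In Dll3-zero cells the shares were 66.6% for both, 10.8% for Lhx6 alone, 11.3% for Lhx8 alone and 11.2% for neither. Of 8 tested cholinergic lineage genes, none was higher than in Dll3-zero cells and 4 were lower: Gbx1, Gbx2, Nr4a2 and Zfhx3. Of all genes, 1.43% were higher and 1.29% lower in this comparison. Gbx1, a homeobox gene of this lineage, was 0.166 against 0.557. Sst, the neuropeptide of an interneuron class, was 0.300 against 0.929. Isl1, a LIM-homeodomain factor of cholinergic and striatal neurons, was higher instead, at 2.11 (SD 3.86) against 1.56, a ratio below 2.

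Dll3 cells differed among themselves along the Dll3 value. Between the 231 cells at 3 or more and the 392 at 1, 132 of 6610 genes (2%) were higher and 223 (3.37%) lower. Higher genes included Cdkn1c (17.9 against 7.07), Abracl (10.7 against 4.02), Btbd17 (1.77 against 0.529), Gadd45g (3.41 against 1.01) and Olig2 (0.414 against 0.0868), the last a factor of ventral progenitors. Among lists, 6 of 15 subventricular zone genes, 12 of 25 ventricular zone genes and 8 of 28 S phase genes were higher. Lower genes included 8 of 29 pan-neuronal genes, among them Stmn2 (9.46 against 21.0), a microtubule regulator of axons, and Gap43 (1.27 against 3.78), a growth cone protein. The cells at 1 were in turn close to Dll3-zero cells: 10 of 6454 genes (0.155%) were higher and 8 (0.124%) lower. The genes higher at 1 included Btbd17, St18 (1.51 against 0.678), Mfng, Btg2, Ccnd2, Cdca7 and Ube2c. Median totals and genes per cell were 12117.5 and 3871.5 at 1, and 11956 and 3750 at 3 or more.

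The same genes were ordered along the level of Tubb3 within Dll3 cells. Cells were cut into 4 bins of 194 or 195 cells by Tubb3 level, with levels of 12.9, 23.1, 31.6 and 44.6. Between the lowest and highest bin, 293 of 6666 genes (4.4%) were at least 2-fold higher in the lowest and 194 (2.91%) lower. From the lowest to the highest bin, Cdkn1c stood at 15.8, 12.1, 9.39 and 6.21, and Gadd45g at 4.39, 1.62, 1.23 and 0.740. Ccnd1 went from 3.59 to 0.343 and Btg2 from 1.38 to 0.138. Sox11 stayed between 51.6 and 53.2. Calb1, a calcium-binding protein of interneurons, ran from 0.391 to 3.61, and Nxph1, a secreted synaptic protein, from 0.212 to 1.79. In the lowest bin, 18 of 32 S phase, 12 of 21 G2 and M phase and 17 of 26 ventricular zone genes were higher, and none of the S phase or G2 and M phase genes was lower.

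**Figure D4:**
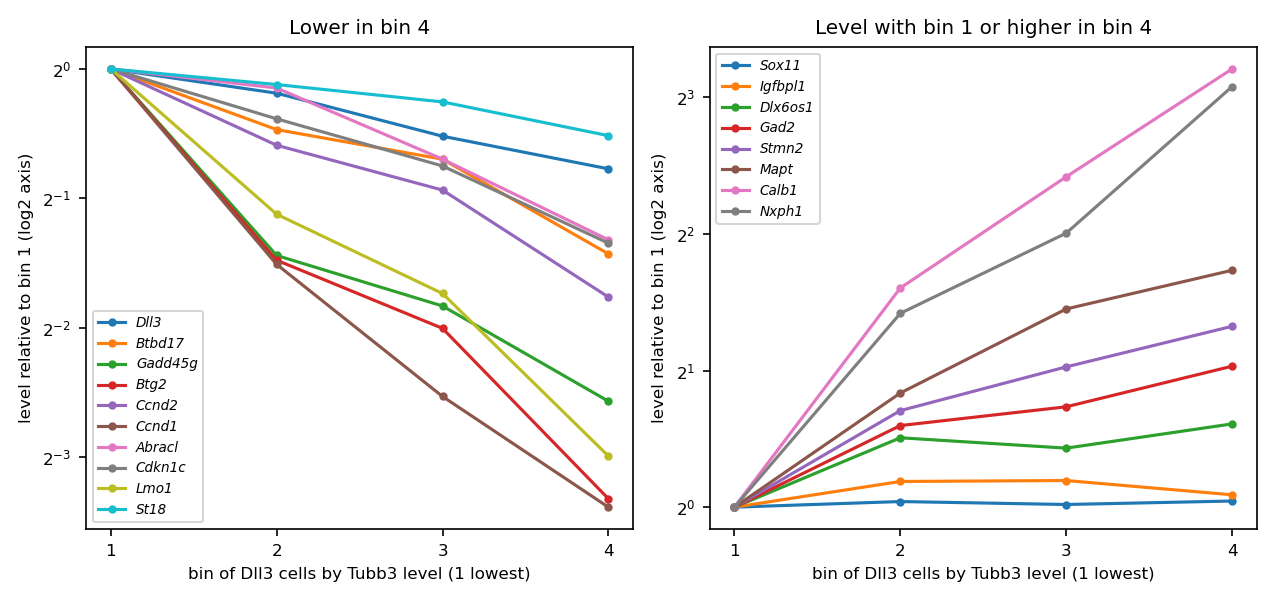
Levels relative to the lowest of 4 bins of Dll3 cells by Tubb3 level (log2 axis; bins of 194 or 195 cells). On the left, Ccnd1, Btg2, Lmo1 and Gadd45g are the steepest lines and St18 (2.24 to 1.56) the flattest; on the right, Sox11 is flat and Calb1 and Nxph1 end highest.

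High Cdkn1c was carried by a minority of Dll3 cells. A value of 20 or more was found in 127 cells (16.3%, 13.8% to 19.1%), which held 59.4% of the summed Cdkn1c value of Dll3 cells. The share of cells at 20 or more was 15.3% in cycling Hes5-low cells, 7.32% in Hes5 progenitors and 1.96% in Dll3-zero cells. Such cells held 60.2%, 57.3% and 9.24% of the summed Cdkn1c value of these groups, in the same order. Among Dll3 cells the share of cells at 20 or more was 31.2% (25.3% to 37.6%) at a Dll3 value of 3 or more. It was 7.40% (5.01% to 10.5%) at a Dll3 value of 1. Of the 127 Dll3 cells with Cdkn1c at 20 or more, 71 (55.9%, 46.8% to 64.7%) had Isl1 at 3 or more. Cells with Isl1 at 3 or more made up 26.9% of all Dll3 cells.

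Dll3 cells with Isl1 at 3 or more (209 cells) differed from the other 569 in further genes, with 132 of 6611 (2%) higher and 83 (1.26%) lower. Cdkn1c was 20.7 against 7.19, Gadd45g 3.81 against 1.32, and Zfhx3, a large homeodomain and zinc finger factor, 4.999 against 1.19. Lhx6 was 0.711 against 2.99, Calb1 0.288 against 2.39 and Nxph1 0.188 against 1.10. Isl1 at 3 or more was found in 43.7% (37.2% to 50.4%) of cells with Dll3 at 3 or more, 19.4% (15.6% to 23.7%) of cells at 1 and 20.1% of Dll3-zero cells.

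The Isl1 cells held 2 sets that differed in regional genes. In the 84 cells with Lhx8 also at 3 or more, Nkx2-1 was 5.67, Zic1 4.09, Meis2 0.643 and Ebf1 0.0584. In the 125 cells with Isl1 but Lhx8 under 3, Nkx2-1 was 3.06, Zic1 0.597, Meis2 4.96 and Ebf1 3.88. The Ebf1 level was carried by a minority of these cells, since its median and upper quartile were 0 and its highest value 85. Zic1 encodes a zinc finger protein of the septal region, while Meis2 and Ebf1 are factors of the lateral ganglionic eminence and its striatal neurons. Cdkn1c at 20 or more was found in 53.6% (42.4% to 64.5%) of the first set and 20.8% (14.1% to 29.0%) of the second, and in 9.97% (6.92% to 13.8%) of the 321 cells with Lhx8 but Isl1 under 3. Cdkn1c levels were 27.2, 16.5 and 7.28 in the 3 sets. Ebf1 at 3 or more was found in 22 Dll3 cells. None of the 231 with Dll3 at 3 or more had it (upper bound of the exact 95% interval 1.58%), against 20 of the 392 at 1 (5.10%).

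**Figure D5:**
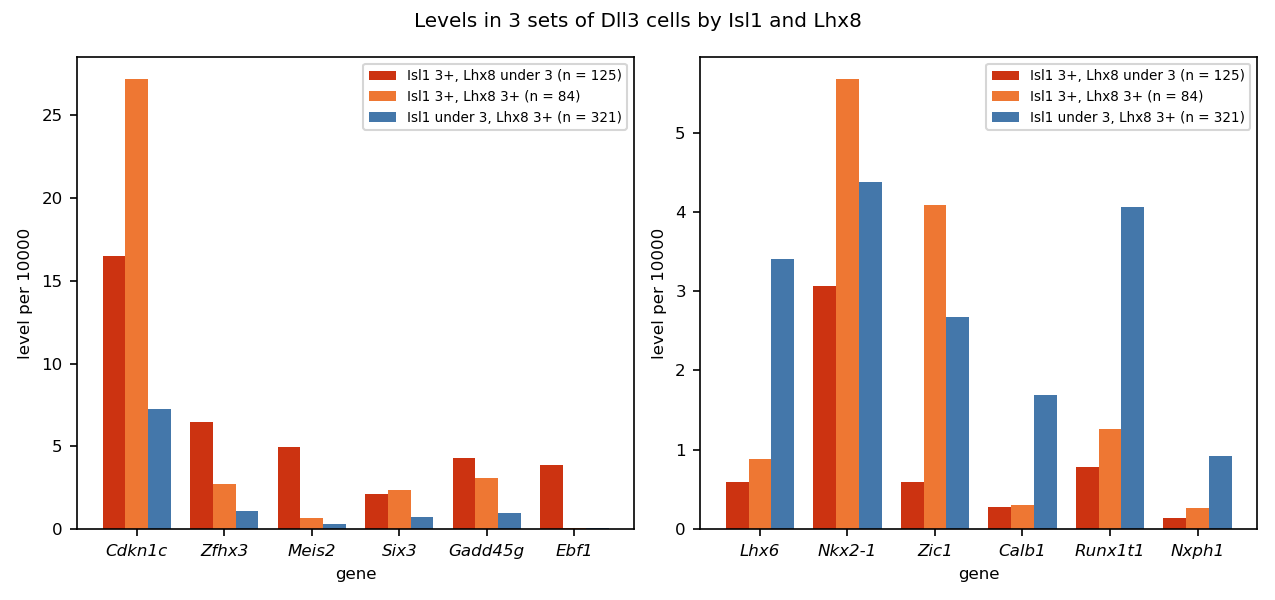
Levels (summed value per 10000, bars from 0) in 3 sets of Dll3 cells cut at a value of 3 for Isl1 and Lhx8. Cdkn1c is highest in cells with both (27.2), Meis2 and Ebf1 in cells with Isl1 and little Lhx8 (4.96 and 3.88), and Lhx6 and Runx1t1 in cells with Lhx8 and little Isl1 (3.41 and 4.06).

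Markers of other cell types were close to 0. Summed levels in Dll3 cells were 0.373 for excitatory neurons (7 of 10 markers measured), 0.0387 for endothelium (3 of 9), 0.00209 for microglia (1 of 9), 0.0544 for mural cells and mesenchyme (4 of 10) and 0.0376 for oligodendrocyte precursors (4 of 5). The gene with the highest level in the first sum was Otp, a homeobox gene of the hypothalamus, at 0.178 against 0.0750 in Dll3-zero cells. Hemoglobin transcripts, a trace of blood, summed to 2.02 in Dll3 cells and between 1.78 and 2.10 in the other 3 groups. Neurod6, Cldn5, Cdh5, Kdr, Cx3cr1, Csf1r and Rgs5 had no row in the matrix.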

How the data were processed

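Cells of 1 pooled MGE library were measured by 10x single-cell RNA sequencing with MULTI-seq, per the labels. The submitters' processing notes list bcl2fastq, Cell Ranger 3.0.2 and the build GRCm38. The deposited matrix holds whole-number values made by the authors, treated as a score because cell totals span a narrow range and 214 cells (5.35%) skip the value 1 over 736 genes. How they were made is not given by the sources used here. The matrix has 0 mitochondrial rows, and where a symbol stood on several rows (9 symbols), the one with the largest sum was kept. No per-sample column was left unmapped, and cells were not assigned to sample barcodes. Values of 1 gene of the lists are not reported here.

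The members and the gene lists were chosen with earlier results of these data known. Groups, levels and ratios were computed in Python 3.11.15 (numpy 2.4.6, scipy 1.17.1) over all genes, and the ratio step was tested on simulated data. Cells are not replicates, so no test was run. Shares carry exact Clopper-Pearson intervals. Shares were computed again after drawing 10000 values from each cell, and all cells were deep enough for this. Scrublet in scanpy 1.11.5 called 6 cells as doublets, 0 of them Dll3 cells, and no cell was removed. A low number of calls does not show that doublets were few. Genes named in the text are the list members and, outside the lists, the 15 with the largest smallest-of-3 ratio and the 10 at each end of each comparison with a single group, at a level of 0.5 or more, in at least 10% of cells with ribosomal protein genes and gene models that have no proper symbol left out. Alternatives were other limits on Dll3, Hes5 and cycle genes, other minimum levels, other scalings, and leaving out cells.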

Additional observations from a re-analysis of the deposited data

How the results depend on the processing

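No paired analysis was possible because the series holds 1 RNA library and no replicates. Over 10 alternatives, no median of a gene list at 2-fold or more changed its sign. The sign of smaller medians, of at most 0.81 in size, differed in 25 of 589 cases. Leaving out cells that skip the value 1 or doublet calls, thinning, the mean deposited value and a capped mean moved none of the gene counts and list medians beyond 1.5 times. Of 1068 log2 ratios of single genes, thinning moved 2 beyond 1.5 times and the capped mean 3. Leaving out cells with Calb1 or Ebf1 at 10 or more moved 7 of these ratios. Requiring Dll3 at 2 or more moved 156 of them, and requiring Hes5 and cycle genes at 0 moved 65. Requiring Dll3 at 2 or more made the population smaller by construction, at 9.65% of cells. Cells with Dll3 at 1 were then in neither group of any comparison. Of the genes, 65 were higher than in all cells that are not Dll3 cells, and 270 higher than in cycling Hes5-low cells. Against Dll3-zero cells, 188 were higher and 293 lower, and 50 genes were at their highest. The median log2 ratio of MGE genes to Hes5 progenitors was 1.40 (2.34 over all Dll3 cells). Requiring Hes5 and cycle genes at 0 gave 11.3% of cells, 13 genes higher than in all others and a median of -5.27 for G2 and M phase genes against cycling cells. In this setting, all others included the Dll3 cells with values above 0 for these genes. A minimum level of 0.05 tested more genes and gave 62 higher and 922 lower than in all others, 1314 and 2147 against Hes5 progenitors, 824 and 1478 against cycling cells, 258 and 216 against Dll3-zero cells and 47 at their highest. Medians against Hes5 progenitors were -2.49 for Notch receptors and effectors and -2.09 for Shh, Wnt and Fgf genes, the latter -1.17 against cycling cells. A minimum of 1 tested fewer and gave 8 and 78, 312 and 290, 138 and 209, 29 and 15 in the same order, and 4 at their highest. Medians against Hes5 progenitors were 1.53 for MGE genes, 1.80 for axon guidance and -0.33 for stress genes (0.81 otherwise). For stress genes against cycling cells the median was -0.14 (0.45 otherwise), and both stress medians were of opposite sign. The median was 0.99 for cell cycle exit genes and D cyclins against Dll3-zero cells. Without cells with Calb1 or Ebf1 at 10 or more, an alternative chosen after seeing the data, 45 genes were higher than in all others and the MGE median against Hes5 progenitors was 1.58. The log2 ratio of Ebf1 to Hes5 progenitors was 3.96 with these cells and 1.15 without them, and that to Dll3-zero cells -1.16 and -0.40. The cause of these shifts was not tested where the setting does not fix it. The unknown raw depth, the single library and the GFP gate limit every value.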

Other observations

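Metabolic and stress genes and signalling pathways have not been described above. Of all genes tested against Hes5 progenitors, 16.4% were lower in Dll3 cells and 11.1% higher. Of 13 glycolysis and hypoxia genes tested, 6 were lower in Dll3 cells than in Hes5 progenitors and none was higher. Ldha, which makes lactate, stood at 1.195 in Dll3 cells, 6.80 in Hes5 progenitors, 3.77 in cycling Hes5-low cells and 0.569 in Dll3-zero cells. Of 10 stress and immediate early genes, 5 were higher than in Hes5 progenitors (Ddit4, Dusp1, Egr1, Fos and Hspa1a) and none was called in either direction against Dll3-zero cells. Of 10 genes of the Shh, Wnt and Fgf pathways, 8 were lower than in Hes5 progenitors and none higher. Shh itself, a secreted ventralizing signal also made by MGE neurons, was 0.268 in Dll3 cells and 0.620 in Dll3-zero cells. Sox2, a progenitor factor that lies within the Sox2ot transcript unit, had an order within Dll3 cells opposite to that of Vim: it was 2.48 in the lowest and 4.73 in the highest Tubb3 bin, whereas Vim was 12.7 and 6.62.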
